A study of Mus musculus with 21 samples.

Results

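The 6 chemokine genes Ccl3, Ccl4, Ccl5, Ccl1, Xcl1 and Cxcl10, which T cells are known to transcribe, were followed across all 7 groups of the series. They were chosen by name, and each of the 6 matched 1 gene among the 47643 in the count table. All 6 passed the filter of at least 10 counts over the 21 libraries. RNA was measured by 3′ mRNA sequencing in CD4+ T cells sorted from spleens of Tg4 Tiger Nr4a3-Tocky mice, whose Tg4 transgene encodes a receptor that recognises a peptide of myelin basic protein (MBP). The mice also carry an Il10-GFP reporter and a fluorescent Timer protein driven by Nr4a3. Controls carried the same alleles and are labelled untreated. The other groups were injected under the skin with the [4Y] MBP peptide, without adjuvant. Its dose was 0.8 µg or 80 µg, and spleens were taken after 4 h, 12 h or 24 h. Each group had 3 libraries, and, per the study's methods, replicate mice were stained separately. The age of the mice is not given in the sources used here, and both sexes were used.

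Several features of this model bear on every value below. The T cells carry a transgenic receptor, and they were sorted on the Timer protein: blue without red at 4 h, blue and red at 12 h and red without blue at 24 h. The gate therefore changed together with time, and the effects of time and gate cannot be told apart. The gate of the control cells is not given in the sources used here. Bulk RNA does not tell fewer cells making a transcript from less of that transcript per cell.

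Chemokines are small secreted proteins that attract cells through G protein-coupled receptors. Ccl3 and Ccl4 (MIP-1α and MIP-1β) are classic early products of activated T cells, and Ccl3 binds Ccr1 among other receptors. Ccl5 (RANTES) is known as a transcript of memory and effector T cells, where it is typically present before restimulation. Ccl1 binds Ccr8. Xcl1 (lymphotactin) binds Xcr1, the receptor that marks cross-presenting dendritic cells. Cxcl10 (IP-10) is an interferon-inducible ligand of Cxcr3, which it shares with Cxcl9.

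The genes lie on 3 chromosomes in GRCm38, by GENCODE vM21. Ccl3 (ENSMUSG00000000982, chr11:83647844-83649355, minus strand) and Ccl4 (ENSMUSG00000018930, chr11:83662584-83664683, plus strand) are neighbours that point away from each other, with 13228 bases and 0 annotated genes between them. Ccl5 (ENSMUSG00000035042, chr11:83525778-83530518, minus strand) lies in the same cluster, and Ccl1 (ENSMUSG00000020702, chr11:82176657-82305690, minus strand) lies 1220087 bases from Ccl5. The annotated span of Ccl1 covers 129034 bases, with transcripts of 3 to 11 exons, and the distance to Ccl5 is taken from the end of that span. Xcl1 (ENSMUSG00000026573, chr1:164931644-164935527, minus strand) and Cxcl10 (ENSMUSG00000034855, chr5:92346638-92348889, minus strand) stand on chromosomes of their own. Exons of Gm20743 lie opposite those of Xcl1 and exons of Art3 opposite those of Cxcl10. The strand setting of the counting is not given in the sources used here, but Gm20743 held 1 count and Art3 held 6 counts over the 21 libraries.

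Promoter sequences were held for 4 of the 6 genes, Ccl3, Ccl1, Xcl1 and Cxcl10, and are shown because Ccl3 and Ccl1 peaked together while Xcl1 and Cxcl10 had patterns of their own. Each line gives the 250 bases before the RefSeq transcription start (GRCm38.p6), 5′ to 3′ on the strand of the gene. For Ccl1, this start and its window lie inside the GENCODE span given above, not at the 5′ end of that span. Capitals mark matches on either strand to the NFAT core GGAAA, the AP-1 motif TGANTCA or the kappaB motif. The windows are chr11:83649379-83649628 for Ccl3, chr11:82179813-82180062 for Ccl1, chr1:164935523-164935772 for Xcl1 and chr5:92348890-92349139 for Cxcl10, all on the minus strand.
Ccl3: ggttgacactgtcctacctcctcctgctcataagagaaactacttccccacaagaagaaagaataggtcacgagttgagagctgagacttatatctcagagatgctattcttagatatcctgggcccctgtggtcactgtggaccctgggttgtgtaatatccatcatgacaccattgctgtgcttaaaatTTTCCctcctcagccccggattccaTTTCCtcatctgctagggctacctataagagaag
Ccl1: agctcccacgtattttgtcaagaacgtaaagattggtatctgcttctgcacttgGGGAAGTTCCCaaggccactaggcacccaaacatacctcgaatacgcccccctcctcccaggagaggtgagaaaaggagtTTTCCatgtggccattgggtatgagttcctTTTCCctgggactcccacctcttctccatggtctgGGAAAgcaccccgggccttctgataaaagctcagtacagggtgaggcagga
Xcl1: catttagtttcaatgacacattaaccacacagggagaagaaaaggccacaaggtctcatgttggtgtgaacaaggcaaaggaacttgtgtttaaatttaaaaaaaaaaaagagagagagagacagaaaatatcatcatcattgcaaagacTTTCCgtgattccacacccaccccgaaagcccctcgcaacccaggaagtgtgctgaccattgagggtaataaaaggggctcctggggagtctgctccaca
Cxcl10: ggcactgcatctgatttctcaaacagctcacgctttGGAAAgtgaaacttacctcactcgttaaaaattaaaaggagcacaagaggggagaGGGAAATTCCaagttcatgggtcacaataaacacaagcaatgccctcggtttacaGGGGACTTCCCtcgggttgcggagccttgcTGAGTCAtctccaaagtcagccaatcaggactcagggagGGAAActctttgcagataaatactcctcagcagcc

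The NFAT core was in 4 of these 4 windows, and in 55.6% of the 32851 promoters of the same length in the RefSeq table. The AP-1 motif was in Cxcl10, and in 6.75% of all promoters. The kappaB motif was in Ccl1 and Cxcl10, and in 7.25% of all promoters. In Cxcl10, 1 NFAT core match lies inside a kappaB match. Cxcl10 thus held matches to all 3 motifs, Ccl1 to 2, and Ccl3 and Xcl1 to the NFAT core alone. A match is a description of the letters and does not show binding.

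**Figure D1:**
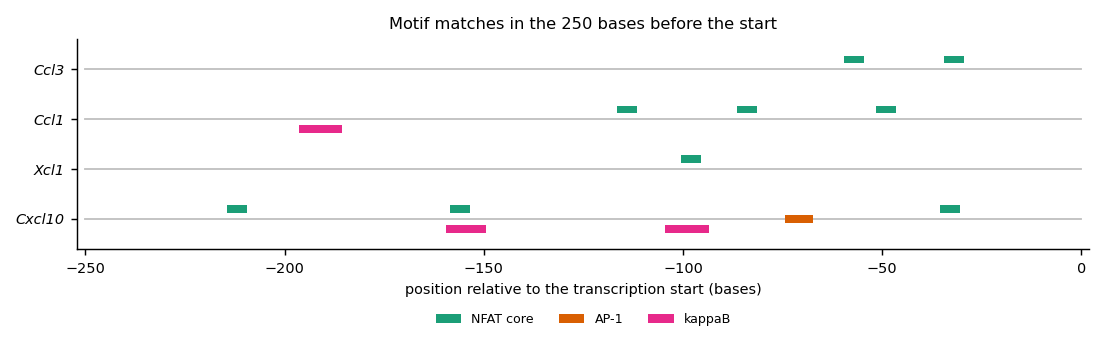
Positions of motif matches in the 250 bases before the transcription start of Ccl3, Ccl1, Xcl1 and Cxcl10, with distance from the start in bases on the x axis and 1 row per gene; bars are coloured by motif. Cxcl10 holds matches to all 3 motifs, and Xcl1 a single match to the NFAT core.

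Library totals ranged from 2352800 to 6244279 counts. Levels below are normalised counts, which are counts divided by the DESeq2 size factor of the library. A gene was taken as too low in a group where every library held 3 counts or fewer, and as too low to judge in a comparison where both group means were under 5 normalised counts. By the first rule, Ccl3 was too low in 3 of 7 groups, Ccl4 in 4, Ccl1 in 4, Xcl1 in 2, Cxcl10 in 2 and Ccl5 in 0. Genes were compared with DESeq2, with 1 fit over the 21 libraries. A gene was called at a Benjamini-Hochberg adjusted p under 0.05 and an absolute shrunken log2 fold change above 1.

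The first question was which chemokine transcripts separated the doses at 4 h, when newly signalling cells were sorted. Ccl4 was the 1 of 6 called, and it was higher at 80 µg by 4.54 on the log2 scale. Of all 11442 genes tested in this comparison, 5.55% were called. The ranges of the 3 and 3 libraries did not overlap for Ccl3, Ccl4 and Ccl1, which lay higher at 80 µg, or for Xcl1, which lay lower. The share of all genes without overlap was not counted, so the lack of overlap only describes these libraries. Ccl5 and Cxcl10 overlapped between the doses.

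Ccl4 stood at 14.1, 32.9 and 5.4 normalised counts in the 3 libraries at 0.8 µg, from 14, 25 and 5 counts. At 80 µg it stood at 552, 481 and 260, from 477, 497 and 303 counts. Every 80 µg library was thus far above every 0.8 µg library, although each dose group varied within itself. The means were 431 ± 152 (SD, n = 3) and 17.5 ± 14.1, and the log2 fold change was 4.54 with an SE of 0.42 (DESeq2 adjusted p = 1.37e-23). Ccl4 was called in each of the 15 alternative settings, with adjusted p from 5.5e-29 to 2.81e-08 and log2 fold changes from 2.44, in a DESeq2 fit of the 4-h dose groups alone, to 5.40, in DESeq2 without replicate 2 at 0.8 µg.

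Ccl3, the neighbour of Ccl4, held 0, 4 and 0 counts at 0.8 µg and 49, 65 and 29 counts at 80 µg. As normalised counts the 80 µg libraries stood at 56.7, 63.0 and 24.9, with a mean of 48.2 ± 20.4 (SD, n = 3), against 1.76 ± 3.04 at 0.8 µg. The groups were fully separated, yet the gene was not called, with a log2 fold change of 2.85, an SE of 0.97 and a DESeq2 adjusted p of 0.229. The dispersion of Ccl3 was 3.87 in the fit over all groups and 0.902 in a fit of the 4-h groups alone. That smaller fit called it (shrunken log2 fold change 1.17, DESeq2 adjusted p = 0.00314). So did edgeR (4.86, adjusted p = 0.000179) and limma-voom (5.25, adjusted p = 4.98e-06), whose log2 fold changes are not shrunken with this prior. The unshrunken DESeq2 value in the fit over all groups was 4.81.

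Ccl1 held 1, 6 and 0 counts at 0.8 µg and 107, 25 and 33 counts at 80 µg. Replicate 1 at 80 µg stood apart, at 124 normalised counts against 24.2 and 28.3 in the other libraries of the group. The means were 58.8 ± 56.4 (SD, n = 3) and 2.97 ± 4.30, so that the SD at 80 µg was nearly as large as the mean. Ccl1 was not called (log2 fold change 2.17, SE 0.89, DESeq2 adjusted p = 0.482), with a dispersion of 6.85 in the fit over all groups and 1.26 in the 4-h groups alone. It was called by edgeR (adjusted p = 0.000457) and by limma-voom (adjusted p = 0.000328), whereas the DESeq2 fit of the 4-h groups alone did not call it. For Ccl3 and Ccl1, the call thus depends on the test.

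Xcl1 went the other way. It stood at 94.9, 98.8 and 69.1 normalised counts at 0.8 µg and at 47.5, 33.9 and 20.6 at 80 µg, so that every 0.8 µg library was above every 80 µg library. The means were 87.6 ± 16.2 (SD, n = 3) and 33.98 ± 13.4. The log2 fold change of -1.31 (SE 0.47) narrowly missed the call, with a DESeq2 adjusted p of 0.0516. It was called by limma-voom (adjusted p = 0.0161), with a filter of at least 10 counts in 3 samples (DESeq2, 0.0195), in the DESeq2 fit of the 4-h groups alone (0.000422) and without replicate 1 at 80 µg (DESeq2 log2 fold change -1.66, adjusted p = 0.0407).

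Ccl5 ranged from 4.3 to 9.2 normalised counts at 0.8 µg, and at 80 µg it stood at 52.1, 20.3 and 4.3. Its 80 µg libraries thus reached from the level of the 0.8 µg group to several times above it. The means were 25.6 ± 24.3 (SD, n = 3) and 7.54 ± 2.79, with a log2 fold change of 1.54 (SE 0.62) and a DESeq2 adjusted p of 0.0975. Without replicate 3 at 80 µg the log2 fold change was 2.03 and Ccl5 was called (DESeq2 adjusted p = 0.0132).

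Cxcl10 stood at 14.1, 7.9 and 6.5 normalised counts at 0.8 µg and at 25.5, 24.2 and 10.3 at 80 µg. The doses overlapped, and the log2 fold change of 0.97 (SE 0.63) was not called (DESeq2 adjusted p = 0.428). It held 26 and 59 counts in all in these groups.

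**Figure D2:**
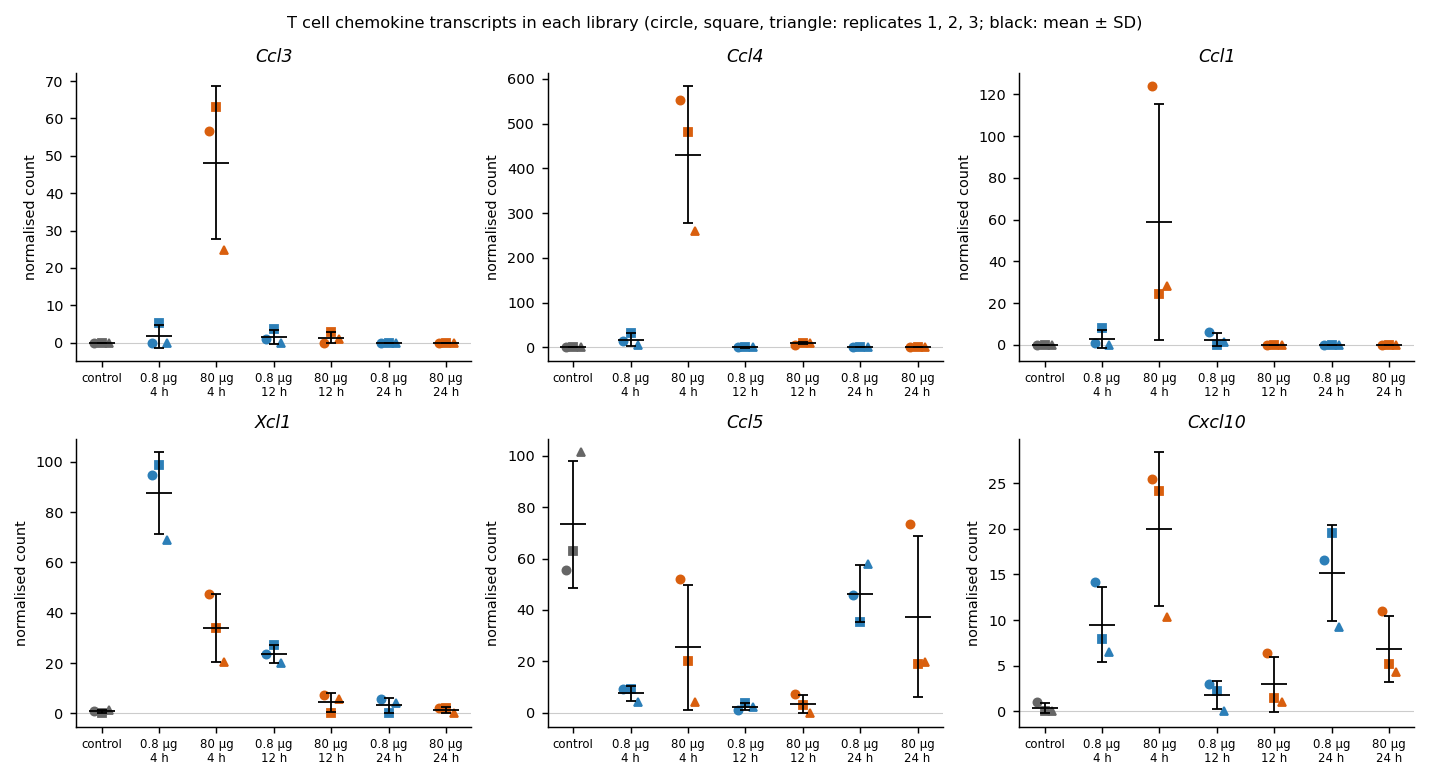
Normalised counts of Ccl3, Ccl4, Ccl1, Xcl1, Ccl5 and Cxcl10 (y axes, each with its own scale) in the 3 libraries of each of 7 groups (x axes); circles, squares and triangles are replicates 1, 2 and 3, and black marks are mean ± SD. Ccl3, Ccl4 and Ccl1 peak at 80 µg and 4 h, Xcl1 peaks at 0.8 µg and 4 h and Ccl5 is highest in the controls. Mean Cxcl10 is higher at 4 h and 24 h than at 12 h. Its rise from 12 h to 24 h is called after 0.8 µg alone.

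The 3 libraries at 80 µg and 4 h differed in how much chemokine RNA they held. Replicate 1 was the highest for Ccl4, Ccl5, Ccl1, Xcl1 and Cxcl10, and replicate 2 for Ccl3. Replicate 3 was the lowest for Ccl3, Ccl4, Ccl5, Xcl1 and Cxcl10, and replicate 2 for Ccl1. Ifng, which encodes interferon-γ, an inducer of Cxcl10, stood at 772, 122 and 52.3 normalised counts in replicates 1, 2 and 3. Replicate numbers name the libraries only.

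At 12 h, when cells positive for both blue and red were sorted, 4 of the 6 genes were too low to judge between the doses: Ccl3, Ccl5, Ccl1 and Cxcl10. The 2 that could be judged, Ccl4 and Xcl1, were called, in opposite directions. In this comparison 2.73% of the 11442 genes tested were called.

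Ccl4 at 12 h held 0, 2 and 0 counts at 0.8 µg and 7, 14 and 11 counts at 80 µg. The mean was 9.12 ± 2.37 normalised counts (SD, n = 3) at 80 µg against 0.501 ± 0.869, and the groups did not overlap. The log2 fold change was 2.97 (SE 0.72, DESeq2 adjusted p = 0.0135). From the counts alone, the ratio was 14.7 with a 95% exact interval of 3.75 to 127, which covers counting error only. The call was lost without replicate 1 at 0.8 µg (DESeq2 log2 fold change 2.54, adjusted p = 0.0711) and in a DESeq2 fit of the 12-h groups alone (log2 fold change 0.62, adjusted p = 0.0886).

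Xcl1 at 12 h stood at 23.5, 27.1 and 20.0 normalised counts at 0.8 µg and at 7.3, 0 and 5.8 at 80 µg. It was lower at 80 µg, with means of 4.38 ± 3.86 (SD, n = 3) and 23.5 ± 3.56 and no overlap. The log2 fold change was -2.29 (SE 0.56, DESeq2 adjusted p = 0.00246). Marker genes of CD8 T cells, another known source of Xcl1, stood in the same order: Cd8a and Cd8b1 summed to 43.6 to 51.3 CPM (counts scaled to the library total) at 0.8 µg and to 13.1 to 22.7 at 80 µg, without overlap. Cd8a held at most 61 counts in a library at 0.8 µg and at most 6 at 80 µg. The cells were sorted as CD4+, a gate meant to leave out CD8 T cells, and the part of any CD8 T cells in the Xcl1 difference was not tested. The call was lost without replicate 2 at 80 µg, which held 0 counts (DESeq2 log2 fold change -1.72, adjusted p = 0.0546), and in the DESeq2 fit of the 12-h groups alone, where the adjusted p was 0.0145 but the shrunken log2 fold change was -0.91.

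At 24 h, when cells with red but no blue were sorted, Ccl3, Ccl4, Ccl1 and Xcl1 were too low to judge between the doses. Ccl3, Ccl4 and Ccl1 held 0 counts in all 6 libraries, which allows up to 3 counts in each. Of the 2 genes that could be judged, 0 were called by DESeq2, edgeR or limma-voom, and 0 had an unadjusted DESeq2 p under 0.05. In this comparison 1.46% of the 10848 genes tested were called. Ccl5 had means of 37.4 ± 31.2 normalised counts (SD, n = 3) at 80 µg and 46.3 ± 11.2 at 0.8 µg, a log2 fold change of -0.30 (SE 0.57) and a DESeq2 adjusted p of 0.875. Its 80 µg libraries stood at 73.4, 19.1 and 19.7, on both sides of the 0.8 µg range. Cxcl10 had means of 6.81 ± 3.62 at 80 µg and 15.1 ± 5.29 at 0.8 µg, with overlap (log2 fold change -1.08, SE 0.63, DESeq2 adjusted p = 0.432).

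**Figure D3:**
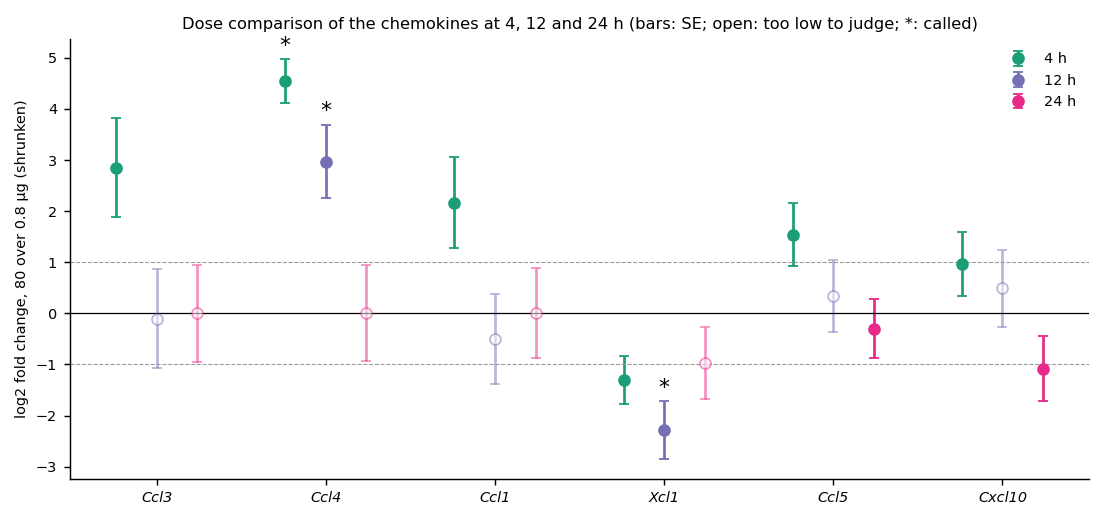
Shrunken log2 fold change of 80 µg over 0.8 µg (y axis, DESeq2) for the 6 chemokine genes (x axis) at 4 h, 12 h and 24 h; bars are SE, open points are comparisons too low to judge, asterisks mark calls and dashed lines mark 1 and -1. Ccl4 is called higher at 4 h and 12 h, and Xcl1 is called lower at 12 h.

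A difference between the dose effects at the 3 times was tested with the likelihood ratio test of DESeq2 on the 18 immunised libraries. Across 10908 genes tested, 9.34% had an adjusted p under 0.05. Of the 6 chemokines 0 passed, and 0 had an unadjusted p under 0.05, the lowest being 0.0511 for Cxcl10 (adjusted p = 0.249). The adjusted p was 0.497 for Ccl4, 0.485 for Ccl3, 0.421 for Ccl5, 0.368 for Ccl1 and 0.63 for Xcl1. With edgeR, 1 of the 6 passed, Ccl1 (adjusted p = 0.0111). A call at 1 time and none at another is therefore not shown to be a difference between times for these genes.

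Each immunised group was also compared with the untreated controls. The immunised cells were sorted as Timer-positive, and the gate of the controls is not given. Immunisation and the choice of Timer-positive cells therefore cannot be told apart in these comparisons. A rise or fall here means a level higher or lower than in the controls. These 6 comparisons share the 3 control libraries. In the controls, Ccl3 and Ccl1 held 0 counts, Ccl4 held 0, 1 and 0, Cxcl10 held 1, 0 and 0, and Xcl1 held 1, 0 and 1. Ccl5 was the exception, with 54, 62 and 71 counts. It was therefore the 1 chemokine of the 6 with a level above the floor in the controls.

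At 4 h after 80 µg, 6 of 6 genes were called against the controls, 5 higher and Ccl5 lower, where 42.5% of all genes tested were called. Ccl4 rose by 8.52 on the log2 scale (SE 0.72, DESeq2 adjusted p = 3.69e-15), Xcl1 by 4.29 (SE 0.70, adjusted p = 4.14e-06) and Cxcl10 by 3.91 (SE 0.79, adjusted p = 8.63e-05). Against controls with 1 or 2 counts in all, the count ratios were 1108 for Ccl4 (95% exact interval 198 to 43786), 43.4 for Xcl1 (11.7 to 363) and 51.2 for Cxcl10 (8.84 to 2055). Against the floor of 3 counts per control library, Ccl3 was at least 13.9-fold higher (DESeq2 adjusted p = 0.00562) and Ccl1 at least 16.9-fold higher (adjusted p = 0.0265). The Ccl1 bound leans on replicate 1 at 80 µg, with 124 normalised counts against 24.2 and 28.3 in replicates 2 and 3. It would be lower without that library. The call of Ccl3 was lost without replicate 1 (DESeq2 adjusted p = 0.058) or replicate 2 (0.0614) at 80 µg. That of Ccl1 was lost without any 1 of the 80 µg libraries (DESeq2 adjusted p from 0.123 to 0.207) and without control replicate 1 (0.0501).

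At 4 h after 0.8 µg, 4 of the 6 genes were called against the controls, where 39.8% of all genes tested were called. Xcl1 rose by 5.61 (SE 0.69, DESeq2 adjusted p = 5.3e-09), Ccl4 by 3.97 (SE 0.74, adjusted p = 6e-05) and Cxcl10 by 2.95 (SE 0.80, adjusted p = 0.00209), all on the log2 scale. The count ratios were 116 for Xcl1 (95% exact interval 31.7 to 961), 43.7 for Ccl4 (7.44 to 1764) and 25.8 for Cxcl10 (4.24 to 1058). Ccl5 fell by 2.95 (SE 0.61, adjusted p = 8.51e-06). Ccl3 and Ccl1 were too low to judge, with 4 and 7 counts in all.

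At 12 h, 2 of the 6 genes were called against the controls at each dose and 4 were too low to judge, where 36.8% of all genes were called at 0.8 µg and 37% at 80 µg. Xcl1 was higher after 0.8 µg by 3.81 on the log2 scale (SE 0.70, DESeq2 adjusted p = 4.1e-05; count ratio 32.0, 95% exact interval 8.55 to 269), and Ccl4 was higher after 80 µg by 3.11 (SE 0.75, adjusted p = 0.0011; count ratio 24.4, 4.07 to 993). Ccl5 was the second gene called at each dose, and it fell by 4.22 after 0.8 µg (SE 0.66, adjusted p = 6.03e-09) and by 3.87 after 80 µg (SE 0.63, adjusted p = 1.54e-08).

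At 24 h, Cxcl10 was the 1 gene called against the controls at each dose, where 16.9% of all genes were called at 0.8 µg and 19.7% at 80 µg. It stood at 16.5, 19.6 and 9.3 normalised counts after 0.8 µg and at 10.96, 5.2 and 4.3 after 80 µg, from at most 1 count in a control library. It was higher by 3.56 on the log2 scale after 0.8 µg (SE 0.79, DESeq2 adjusted p = 0.00058; count ratio 40.7, 95% exact interval 6.96 to 1641) and by 2.47 after 80 µg (SE 0.80, adjusted p = 0.0109; count ratio 16.4, 2.67 to 673). The second call was lost without control replicate 2 (DESeq2 adjusted p = 0.0756) or 3 (0.0624). Ccl5 was not called at 24 h, with a log2 fold change of -0.61 (adjusted p = 0.452) after 0.8 µg and -0.90 (adjusted p = 0.22) after 80 µg, although it was called lower after 80 µg without replicate 1 of that group (DESeq2 log2 fold change -1.79, adjusted p = 0.0134) and by limma-voom (-1.33, adjusted p = 0.013).

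Ccl5 had its highest mean in the controls, and after 0.8 µg it was low at 4 h and 12 h and higher at 24 h. Its means were 73.3 ± 24.6 normalised counts (SD, n = 3) in the controls, 7.54 ± 2.79 and 2.36 ± 1.39 at 4 h and 12 h after 0.8 µg, and 46.3 ± 11.2 at 24 h. After 80 µg they were 25.6 ± 24.3, 3.41 ± 3.68 and 37.4 ± 31.2 at the same times. The 80 µg libraries at 4 h, at 52.1, 20.3 and 4.3, overlapped those at 24 h, at 73.4, 19.1 and 19.7, and the 24-h mean rested mainly on replicate 1. The fall against the controls at 80 µg and 4 h was the least firm of these, with a log2 fold change of -1.41 (SE 0.58, DESeq2 adjusted p = 0.0306). That call was lost without control replicate 2 (DESeq2 adjusted p = 0.051) or 3 (0.148), without replicate 2 (0.099) or 3 (0.154) at 80 µg, in a fit of the compared groups alone (0.144) and with the filter of 10 counts in 3 samples (0.0704).

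Marker genes of 2 lineages were also higher in the controls and at 24 h than at 4 h and 12 h. The summed level of 8 B cell genes was 413 to 482 CPM in the control libraries and 288 to 416 at 24 h, but 41.5 to 132 at 4 h and 12 h. Among these genes, Ighm had a mean of 1150.5 normalised counts in the controls, 98.5 and 84.8 at 4 h and 1478 at 24 h after 80 µg, while Ms4a1 had a mean of 58.0 in the controls and 12.5 at 24 h after 80 µg. Ms4a1 thus had its lowest mean in the 80 µg group at 24 h, where Ighm was highest. The summed level of 6 T cell genes was 2509 to 2708 CPM in the controls, 1163 to 1727 at 4 h and 12 h and 2159 to 2563 at 24 h. The part of these changes in the Ccl5 result was not tested.

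**Figure D4:**
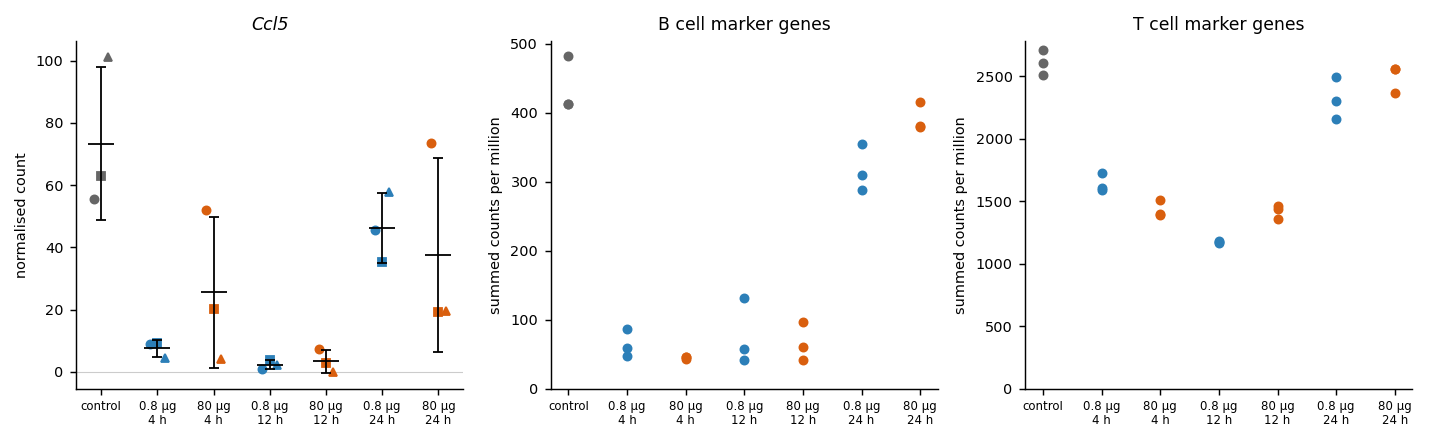
Ccl5 normalised counts (left, points with mean ± SD) and the summed CPM of 8 B cell (middle) and 6 T cell marker genes (right) in the 3 libraries of each of 7 groups. All 3 are higher in the control and 24-h groups than in most libraries at 4 h and 12 h.

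Time courses within a dose are given next, with the gate changing alongside. From 4 h to 12 h after 80 µg, 5 of 6 genes were called, all lower, where 24.2% of all genes tested were called. Ccl4 fell by 5.40 on the log2 scale (SE 0.44, DESeq2 adjusted p = 3.43e-31), from 431 to 9.12 normalised counts, and Xcl1 by 2.77 (SE 0.56, adjusted p = 7.54e-06). Cxcl10 fell by 2.44 (SE 0.67, adjusted p = 0.00169) and Ccl5 by 2.47 (SE 0.64, adjusted p = 0.000604). Ccl1, at 0 counts in all 3 libraries at 12 h, was at least 22.4-fold lower against the floor of 3 counts per library (adjusted p = 0.0261). This bound leans on replicate 1 at 80 µg and 4 h and would be lower without it. Ccl3 went from 48.2 ± 20.4 to 1.30 ± 1.49 (SD, n = 3) without overlap but was not called (log2 fold change -2.99, adjusted p = 0.0707). It was called by edgeR (adjusted p = 1.61e-05), by limma-voom (1.41e-06) and in a DESeq2 fit of the compared groups alone (2.37e-09).

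Single libraries carried part of these calls. Without replicate 1 at 80 µg and 4 h, the log2 fold change of Ccl5 was -1.58 (DESeq2 adjusted p = 0.0531), and that of Ccl1 was -1.49 (0.217). The call of Ccl1 was also lost without replicate 2 (0.13) or replicate 3 (0.133) at 4 h and without replicate 2 at 12 h (0.053). The call of Ccl5 was lost in a DESeq2 fit of the compared groups alone (0.0868).

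From 4 h to 12 h after 0.8 µg, 3 of the 6 genes were called, all lower, 2 were too low to judge, and 19.6% of all genes tested were called. Xcl1 fell by 1.80 on the log2 scale (SE 0.48, DESeq2 adjusted p = 0.000951) and Ccl4 by 3.82 (SE 0.71, adjusted p = 0.000117; count ratio 26.3, 95% exact interval 6.86 to 224). Cxcl10 fell by 1.96 (SE 0.72, adjusted p = 0.0259), a call lost without replicate 1 at 4 h (DESeq2 adjusted p = 0.125), without replicate 2 (0.06) or 3 (0.101) at 12 h and in a fit of the compared groups alone (0.0639). Xcl1 kept 23.5 ± 3.56 normalised counts (SD, n = 3) at 12 h in this group, above every library of the 80 µg group at that time.

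From 12 h to 24 h, Ccl5 was called higher at both doses and Cxcl10 after 0.8 µg. After 0.8 µg, Ccl5 rose by 3.61 on the log2 scale (SE 0.66, DESeq2 adjusted p = 9.46e-07) and Cxcl10 by 2.57 (SE 0.71, adjusted p = 0.00201), while Xcl1 fell by 2.57 (SE 0.59, adjusted p = 0.000109), 3 of 6 called where 25.3% of all genes tested were called. After 80 µg, Ccl5 rose by 2.97 (SE 0.64, adjusted p = 2.14e-05) and Ccl4 was at least 3.73-fold lower against the floor (adjusted p = 1.16e-05), 2 of 6 called where 26.6% were called. Cxcl10 was not called after 80 µg, where its means were 2.94 ± 3.00 at 12 h and 6.81 ± 3.62 at 24 h (SD, n = 3), with a log2 fold change of 0.99 (SE 0.69, DESeq2 adjusted p = 0.25). The remaining 3 genes of each comparison were too low to judge.

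The order of the group means shows the same patterns. Ccl3, Ccl4 and Ccl1 were each highest at 80 µg and 4 h, and the range of that group did not overlap that of the next group, 0.8 µg at 4 h. Xcl1 was highest at 0.8 µg and 4 h, again without overlap with the next group, 80 µg at 4 h, which did overlap 0.8 µg at 12 h. In Ccl5 and in Cxcl10, every group overlapped its neighbour in the order. Across the 21 libraries, the Pearson correlation of the deposited rlog values (a regularised log2 scale) was 0.934 between Ccl3 and Ccl4, 0.893 between Ccl3 and Ccl1 and 0.869 between Ccl4 and Ccl1. These correlations describe libraries that share groups, and most libraries were near the floor.

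The genes most like each chemokine were ranked by the same correlation among 9979 genes whose highest group mean reached 20 normalised counts. For Ccl4 they were Sik3 (0.971), Ptpn4 (0.965) and Il2 (0.960). Il2, the T cell growth factor gene, had means of 1514 ± 439 normalised counts (SD, n = 3) at 80 µg and 155 ± 44.2 at 0.8 µg at 4 h. Beside Ccl4, the genes most like Ccl3 were Atf3 (0.967), a stress-response transcription factor gene, and Csrnp1 (0.931), and Atf3 was also first for Ccl1 (0.905). For Xcl1 they were Tnnt2 (0.948), Nr4a1 (0.947), an early gene of T cell receptor signalling, and Tnfsf14 (0.943). Tnnt2 had the same order of doses as Xcl1 at 4 h, with 533 ± 89.9 at 0.8 µg and 68.3 ± 10.97 at 80 µg, while Nr4a1 stood at 2176 ± 295 and 2008 ± 187. For Ccl5 they were S100a4 (0.932), Gm4759 (0.903) and Gm8995 (0.894), and S100a4 is known as a transcript of memory T cells. Cxcl10 never reached a mean of 20 and was not ranked.

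The receptors of these chemokines and the other chemokine genes were also counted. Of 23 chemokine receptor genes, 14 passed the filter, and 9 reached a mean of 20 normalised counts in some group. Between the doses, 2 were called higher and 1 lower of 11 tested at 4 h, 2 higher of 11 at 12 h and 0 of 10 at 24 h, where 5.55%, 2.73% and 1.46% of all genes tested were called. Cxcr3, the receptor of Cxcl10, was called higher at 80 µg at 4 h (log2 fold change 2.91, DESeq2 adjusted p = 1.15e-09) and at 12 h (2.93, adjusted p = 2.55e-08). Its means were 65.2 and 7.9 normalised counts at 4 h, 44.1 and 4.7 at 12 h and 166 and 92.2 at 24 h, for 80 µg and 0.8 µg. Of other matching receptors, Ccr1 had 0 counts in the 21 libraries, Xcr1 had 7 and Ccr8 had 16.

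The other receptors called at 4 h were Ccr7, which guides naive T cells to lymph nodes, higher at 80 µg by 1.18 (DESeq2 adjusted p = 9.23e-11), and Ccr9, a gut-homing receptor, lower at 80 µg (log2 fold change -2.68, adjusted p = 0.00826). Ccr7 stood at 1139 to 1363 normalised counts in the control libraries. At 4 h it stood at 104 to 147 after 0.8 µg and at 207 to 317 after 80 µg, below every control library at both doses. Against the controls at 4 h, 13 receptors were tested. After 0.8 µg, 1 was called higher and 7 lower, where 39.8% of all genes tested were called, and after 80 µg, 2 were called higher and 6 lower, where 42.5% were called. Cxcr5, the receptor that guides cells to B cell follicles, rose by 2.36 and 3.24 on the log2 scale at the 2 doses (adjusted p = 2.48e-14 and 3.56e-27). Cxcr4, the receptor of Cxcl12, fell by 4.88 and 5.38 (adjusted p = 1.63e-13 and 7.5e-14). Ccr2 fell by 2.26 and 3.10 (adjusted p = 0.000197 and 1.17e-06). Cxcr3 fell by 1.71 after 0.8 µg (adjusted p = 0.000353) and rose by 1.21 after 80 µg (adjusted p = 0.00205). Cxcr3 was thus called in opposite directions at the 2 doses.

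Of 32 other chemokine ligand genes, 9 passed the filter, and Ccl25 and Cxcl9 reached a mean of 20. Between the doses, 3 were tested at 4 h, 3 at 12 h and 2 at 24 h. Cxcl9 was the 1 called, at 4 h, where 5.55% of all genes tested were called (log2 fold change 4.78, DESeq2 adjusted p = 4.73e-05). It stood at 90.3, 48.4 and 23.1 normalised counts at 80 µg and at 1.0, 1.3 and 0 at 0.8 µg, without overlap. Cxcl10, which shares Cxcr3 with Cxcl9, overlapped between the same groups. At 12 h Cxcl9 stood at 64.9, 16.9 and 11.7 after 80 µg and at 13.7, 6.0 and 1.2 after 0.8 µg (adjusted p = 0.134), and at 24 h it was at 5.5 or less. Cxcl9 was not called against the controls at 24 h (DESeq2 adjusted p = 0.802 after 0.8 µg and 0.0581 after 80 µg), where Cxcl10 was called higher. By the rule above, however, Cxcl9 was too low to judge there. It held 0, 1 and 0 counts after 0.8 µg, 5, 0 and 3 after 80 µg and 0 in each control library.

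**Figure D5:**
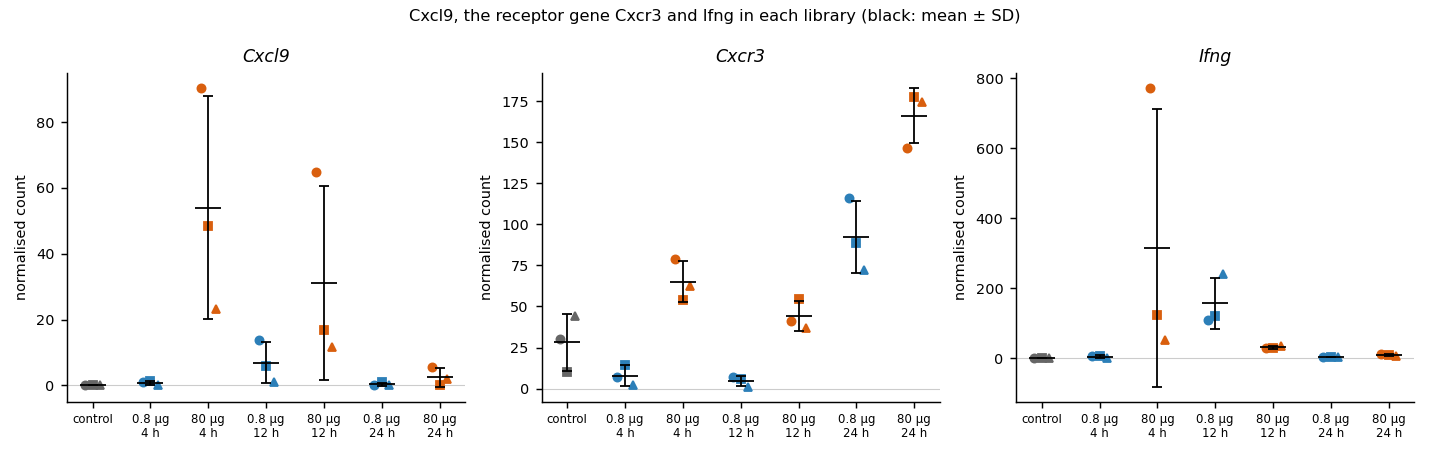
Normalised counts of Cxcl9, the receptor gene Cxcr3 and Ifng (y axes) in the 3 libraries of each of 7 groups (x axes); circles, squares and triangles are replicates 1, 2 and 3, and black marks are mean ± SD. Cxcr3 is higher at 80 µg than at 0.8 µg in every library at 4 h and 12 h, and Ifng is highest in 1 library at 80 µg and 4 h.

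Of 18 genes known to act upstream of these chemokines, 18 passed the filter. Between the doses, 5 were called higher at 80 µg and 3 lower at 4 h, 3 higher and 3 lower at 12 h, and 1 higher and 3 lower at 24 h, where 5.55%, 2.73% and 1.46% of all genes tested were called. Ifng was higher at 4 h by 5.23 (DESeq2 adjusted p = 3.8e-09), with 772, 122 and 52.3 normalised counts against 7.1, 5.3 and 0. At 12 h it stood at 28.3, 29.3 and 35.0 after 80 µg and at 110, 120 and 241 after 0.8 µg, the reverse order, but was not called (log2 fold change -2.04, adjusted p = 0.0914). Tbx21, which encodes T-bet, was called higher at 80 µg at all 3 times, by 2.28, 1.49 and 1.95 on the log2 scale (adjusted p at most 2.25e-06). Eomes, which encodes the related factor eomesodermin, was called lower at all 3 times, with log2 fold changes of -1.46, -2.84 and -2.47 (adjusted p at most 0.000244).

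Other cell types that make these chemokines were checked through their marker genes. The summed level of 14 macrophage, monocyte and dendritic cell genes was 22.4 to 35.0 CPM in the libraries at 80 µg and 4 h, against 30.7 to 59.7 at 0.8 µg and 4 h and 40.8 to 51.6 in the controls. In the 4 groups at 12 h and 24 h it was 31.3 to 67.5 CPM. Of the 14, 6 were at 0 at 80 µg and 4 h, against 3 to 7 in the other groups, and Clec9a was at 0 in every library. The 6 NK cell genes summed to 0 to 4.69 CPM at 80 µg and 4 h and 0.287 to 6.32 at 0.8 µg and 4 h, where Xcl1 was highest, and Ncr1 was at 0 in both. The 2 CD8 genes summed to 15.2 to 30.9 CPM at 0.8 µg and 4 h and to 31.1 to 47.6 in the controls, where Xcl1 held 2 counts in all. They summed to 20.3 to 22.8 CPM at 80 µg and 4 h, within the range at 0.8 µg, and were lower at 80 µg at 12 h, as given beside Xcl1. At 24 h they stood at 34.3 to 40.9 CPM after 0.8 µg and 20.1 to 28.8 after 80 µg. The 4 neutrophil genes summed to at most 3.84 CPM in any library, and the 3 platelet genes to at most 5.53 CPM. The 4 haemoglobin genes ranged widely within groups, from 5.31 to 67.7 CPM at 80 µg and 4 h and from 32.7 to 207 CPM in the controls. The part of these cells in the chemokine values was not tested.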

How the data were processed

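Per the labels and the study's methods, the authors merged reads of forward QuantSeq libraries over 4 lanes, trimmed them, aligned them with STAR 2.5.2a to GRCm38 (mm10) and counted them with HTSeq, and deposited raw counts per gene. The authors also deposited log2 values (the rlog of DESeq2), used here for correlations between genes. The annotation release, the strand setting and whether molecular identifiers were used are not given in the sources used here. Of 47643 genes, 15300 with at least 10 counts over the 21 libraries were tested in R 4.3.3 with DESeq2 1.42.0, as 1 coefficient per group, with p-values adjusted over all genes tested and log2 fold changes shrunk with the normal prior. Alternatives used edgeR 4.0.16 and limma 3.58.1, other filters, scalings and fits, and each library left out in turn. Log2 fold changes from edgeR and limma-voom were not shrunken with the normal prior. The steps were tested on simulated data. Count ratios carry 95% exact binomial intervals (Clopper-Pearson), which cover counting error only. The totals, from 2352800 to 6244279 counts, set a floor of 3 counts per library. Named genes were the 6 chemokines, list genes called between doses or reaching a mean of 20 normalised counts in a group, and the 3 genes most like each chemokine. A few other list and marker genes were named after their values were seen. The members and lists were chosen with earlier results of these data known. Some list genes are not reported here.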

Additional observations from a re-analysis of the deposited data

How the results depend on the processing

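Under the alternatives, the 6 chemokines gave 660 values for single genes. Of these, 615 kept direction and side of the threshold, 30 lost a call, 15 gained one and 0 reversed. The count of chemokines called between doses at 4 h was 1; it was 3 with edgeR, 4 with limma-voom, 2 with at least 10 counts in 3 samples and 3 in a fit of the compared groups alone, and 1 to 2 with a library left out. At 12 h it was 2, against 0 in a fit of the compared groups alone and 1 to 2 with a library left out. Against the controls, it was 6 at 80 µg and 4 h, and 3 to 6 with a library left out. At 80 µg and 24 h it was 1, against 2 with limma-voom and 0 to 2 with a library left out. For 80 µg from 4 h to 12 h it was 5, and 3 to 5 with a library left out. For the interaction of dose and time it was 0, and 1 with edgeR. Over all genes, the main fit called 635 of 11442 tested between doses at 4 h. At that time edgeR called 644 of 15300 and limma-voom 613 of 15300. The filter of 10 counts in 3 samples gave 664 of 11389, and a fit of the compared groups alone 499 of 11209. A fit of the compared groups alone called 145 genes in place of 312 between doses at 12 h and 83 in place of 158 at 24 h. With limma-voom, 282 were called at 24 h. The cause was not tested. Labels share replicate numbers across groups, but same-numbered libraries did not deviate together: over 63 pairs, the correlation of deviations ran from -0.326 to 0.341 with a median of -0.008, and 8 of 21 libraries correlated best with their own number. With a replicate block, the interaction passed for 1 chemokine (Ccl3, adjusted p = 0.0207), and Ccl1 lost its calls at 80 µg against the controls at 4 h (0.107) and from 4 h to 12 h (0.111). Depth limits Ccl3 and Ccl1 outside 80 µg at 4 h, and Ccl4 at 24 h, at 0.8 µg and 12 h and in the controls. It also limits Ccl5 at 12 h and Cxcl10 at 12 h and in the controls. Xcl1 is limited at 24 h, at 80 µg and 12 h and in the controls.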
